A study of Mus musculus with 2 samples.

Results

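Box C/D small nucleolar RNA (snoRNA) fragments were examined in small RNA libraries of J1 mouse embryonic stem cells. Members were all mouse genes of type snoRNA in the GENCODE M21 annotation whose symbol starts with Snord, which gave 98 genes of 1507 annotated snoRNA genes. A sequence tag was counted as a member's fragment when it matched the gene's transcript exactly and in sense and matched no miRNA hairpin. J1 is an established embryonic stem cell line from 129S4/SvJae mice. It was adapted to gelatin and kept in a serum replacement medium with 1000 U/mL of the cytokine LIF, which both groups received. The cells were treated for 6 h with SC1 (pluripotin), a small molecule inhibitor of RasGAP and ERK1, at 1 µM, or with the same volume of its solvent DMSO, and each group had 1 library of small RNA.

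Box C/D snoRNAs are short nucleolar RNAs named after their C box near the 5′ end and their D box near the 3′ end. Bound to a set of core proteins, they guide 2′-O-methylation of ribosomal RNA, and a few of them serve in cleavage and folding of the ribosomal RNA precursor instead. Most are cut from introns of host genes, where the ends of the mature RNA lie a few bases outside the boxes. Short stable fragments of these RNAs are common in small RNA libraries.

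The lists of the libraries held different lengths and shared 0 tag lengths. For DMSO, 18870345 reads in 910008 tags were listed, from 18 to 44 nt. For SC1, 1275599 reads in 88867 tags were listed, from 3 to 17 nt. Reads were therefore counted in DMSO tags of 18 to 31 nt (18862866 reads) and in SC1 tags of 15 to 17 nt (1054495 reads). These totals are those of length classes, not of libraries, so each list was described on its own and no level was compared between SC1 and DMSO. Only fragment positions are set side by side, as a description of tags of different lengths. Embryonic stem cell markers, the hairpins of the miR-290 to miR-295 cluster, were detected at 7 of 7 genes in each list, with 629277 DMSO reads and 26914 SC1 reads. Fibroblast hairpins had 5002 and 42 reads and neural hairpins 5253 and 22 reads in the DMSO and SC1 lists.

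Fragments of many leading members began a few bases before the C box. The leading tags of such members are shown, chosen because they start there, with Snord83b added as the leading SC1 member. They are printed 5′ to 3′, with the exact C box in capitals; here this means the first ATGATGA or GTGATGA on the sense strand of the transcript.
Snord14c, DMSO: tcgctGTGATGAtggatt
Snord82, DMSO: cacaaGTGATGAgtgacaaag
Snord69, DMSO: aagcaGTGATGAcagattggatctgact
Snord118, DMSO: agaaaATGATGAttggagcttgca
Snord49a, DMSO: tgctGTGATGAgatgactaag
Snord45c, DMSO: gtcaATGATGAgctggcatgtattct
Snord83b, DMSO: gttctGTGATGAggctctggaa
Snord83b, SC1: gttctGTGATGAggct

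Another set of tags ended just after a CTGA, the sequence of the D box, but not always at the last CTGA of the gene. These leading tags are shown because their 3′ ends line up, and the last CTGA of each is in capitals. In Snord69 the same tag carries the C box and the CTGA, but later CTGAs follow in its transcript. The Snord17 tag instead ends at base 236 of 238, after the last CTGA of the gene.
Snord69, DMSO: aagcagtgatgacagattggatCTGAct
Snord57, DMSO: ggaaaggatgaacgaacttggcCTGAcc
Snord93, DMSO: ggccaaggatgagaactctaacCTGAct
Snord17, DMSO: caccaagatgagtggtgcaaatCTGAtc
Snord98, DMSO: atgcagtgtggaacataatgaaCTGAac

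Other members gave fragments from elsewhere in the gene, among them Snord2 and Snord22, which ranked with the leading members by DMSO reads. The whole transcripts of Snord69, Snord2 and Snord22 follow, with the leading DMSO tag in capitals, to set a fragment near the 5′ end beside one from the middle and one from the 3′ end.
Snord69: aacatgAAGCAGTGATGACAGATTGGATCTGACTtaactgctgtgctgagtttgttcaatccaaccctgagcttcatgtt
Snord2: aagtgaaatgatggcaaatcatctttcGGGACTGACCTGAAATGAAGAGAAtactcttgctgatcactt
Snord22: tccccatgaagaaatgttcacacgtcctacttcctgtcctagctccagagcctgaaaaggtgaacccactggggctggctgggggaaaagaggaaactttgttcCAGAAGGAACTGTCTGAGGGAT

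The 98 members took 17213 DMSO reads in 1245 tags, of which 592 tags were seen once. That was 0.0913% of DMSO reads of 18 to 31 nt, with an exact (Clopper-Pearson) 95% binomial interval of 0.0899% to 0.0926%. In the SC1 list they took 3223 of the reads of 15 to 17 nt, in 109 tags, or 0.306% (0.295% to 0.316%). Without Snord83b the SC1 share was 0.0688%. The reads carry no molecular identifiers and copies of one molecule cannot be told apart, so every interval given here covers counting error only. Members held 7.40% of all DMSO snoRNA reads and 74.4% of all SC1 snoRNA reads. The remaining DMSO snoRNA reads lay on genes with other symbols, among them the Rnu3 genes (U3) with 92698 and Gm23212 with 91117. Of the members' 3223 SC1 reads, 2497 were from Snord83b. Chance matching was low, as tags spelled backwards gave 0 DMSO reads and 1 SC1 read. Only 1 DMSO read and 0 SC1 reads were antisense to a member.

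Most members had a DMSO read, but few held most of the reads. Of the 98 genes, 80 had 1 read or more, 60 had 10 reads or more and 23 had 100 reads or more, with a median of 19 reads. The 17 Snord116l copies each held less than 1 read after splitting, and Snord111, in an intron of Sf3b3, had 0 reads. The 5 genes with the most reads held 49.1% of the reads, the top 10 held 73.6% and the top 20 held 89.2%. In the SC1 list 40 genes had a read, 10 had 10 reads or more, 58 had none, and the top 5 held 93.4%.

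**Figure D1:**
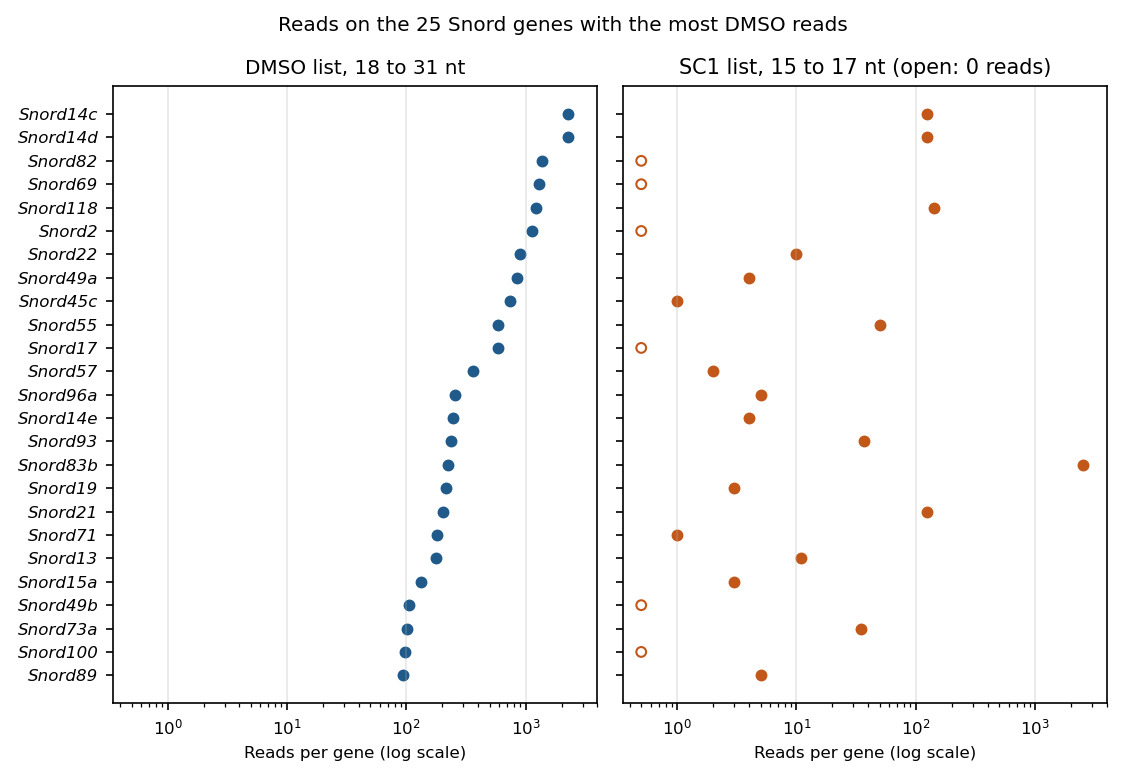
Reads on the 25 members with the most DMSO reads, on a log axis, in the DMSO list (18 to 31 nt, blue) and the SC1 list (15 to 17 nt, orange); open points mark 0 reads. Snord14c and Snord14d lead the DMSO list with 2274 and 2269 reads, while Snord83b leads the SC1 list with 2497 reads and has 222 in the DMSO list.

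The pre-rRNA processing snoRNAs were prominent among the members. This list was the Snord14 family, Snord13, Snord22 and Snord118, better known as U14, U13, U22 and U8, which act in cleavage and maturation of ribosomal RNA. Its 7 genes held 7126 DMSO reads, 41.4% of the members' reads (40.7% to 42.1%), and all 7 had 10 reads or more. In the SC1 list they held 415 reads, 12.9% (11.7% to 14.1%), and 5 had 10 reads or more. U3 was not a member, because its genes are named Rnu3 in this annotation and none has the symbol Snord3.

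Snord14c and Snord14d, 2 copies of U14, were the largest source of DMSO reads. They lie in introns of Hspa8, the gene of the constitutive heat shock cognate protein, at chr9:40803583-40803668 and chr9:40803995-40804080 on the plus strand of GRCm38. Both are 86 nt long and differ at 2 positions, the first at base 47 and the last at base 49, so nearly all tags fit both copies and were split equally. Each copy was credited with about the same reads, 2274 for Snord14c and 2269 for Snord14d, of which 5 and 0 were unique. Their 4542.5 reads, a sum that holds split tags, were 26.4% of the members' DMSO reads (25.7% to 27.1%). Their SC1 reads were 247, or 7.66% (6.77% to 8.64%).

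U14 fragments had a fixed 5′ end and a graded 3′ end. For Snord14c, 97.7% of DMSO reads began at base 1, and 99.6% within 2 nt of the annotated 5′ end. From that start the pair had 1187 DMSO reads of 18 nt, 946 of 19 nt, 608 of 20 nt, 545 of 21 nt, 587 of 22 nt and 218 of 23 nt, and 49 at 27 nt. The shortest DMSO length was therefore the most common. The SC1 tags from the same start had 75 reads of 15 nt, 46 of 16 nt and 120 of 17 nt. The remaining Hspa8 copy, Snord14e, had 246 DMSO reads and 4 SC1 reads, and 89.9% of its DMSO reads began at base 1. Its leading tag was 27 nt long, and all its tags of 18 nt, the length that led in Snord14c, had 2.25 reads. Snord14a, in an intron of Rps13, had 23.8 DMSO reads and 0 SC1 reads, which allows up to 3.

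U8, Snord118, gave fragments from inside the annotated gene. It has no host gene and lies at chr11:69073427-69073561 on the plus strand. Its 135 nt transcript has its C box at base 52, and of 1230 DMSO reads 47.6% began at base 48 and 33.8% at base 47. Of its 143 SC1 reads 69.9% began at base 48 and 20.3% at base 47. Thus 0% of the DMSO reads lay at the annotated 5′ end, yet 84.7% began 4 to 6 nt before the C box. Lengths from base 48 did not grade smoothly, with 105 reads of 23 nt, 93 of 25 nt and 126 of 28 nt but 6 of 22 nt and 6 of 24 nt.

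U22 gave fragments from its 3′ end, and U13 from its C box and its 3′ end. Snord22 (U22) lies in an exon of the noncoding host gene Snhg1 at chr19:8725866-8725991, plus strand, and had 905 DMSO reads and 10 SC1 reads. Of its DMSO reads 98.6% ended within 2 nt of the 3′ end, and 55.9% began at base 105 of 126. Lengths were narrow, with 311 reads of 21 nt and 346 of 22 nt. No exact C box was found in it. Snord13 (U13), without a host gene, had 179 DMSO reads, of which 57.0% began 4 to 6 nt before its C box at base 22 and 37.4% ended at the 3′ end. The 11 SC1 reads of Snord13 were divided too, and 45.5% ended at the 3′ end.

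The other abundant members are mostly methylation guides from introns. Levels were compared between genes as reads per 100 nt of gene, with exact Poisson 95% intervals. Reads of these genes came mostly from few start positions, so this scale sets long genes lower than their reads alone would. By reads alone Snord118, with 1230, stood above Snord49a, with 842. Snord14c and Snord14d were left out of the order, since the equal split of their shared tags sets the level of each copy. Snord82, in an intron of the nucleolin gene Ncl, stood at 1953 DMSO reads per 100 nt (1851 to 2059). Snord2 in Eif4a2 at 1654 (1559 to 1752) and Snord69 in Gnl3, the nucleostemin gene, at 1634 (1546 to 1725) could not be ordered by counting error. Snord49a at 1169 (1092 to 1251) was lower again. Snord45c at 925 (860 to 994) and Snord118 at 911 (861 to 963) overlapped, as did Snord55 at 747 (688 to 810) and Snord22 at 718 (672 to 767).

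Among these guides, Snord82, at chr1:86356261-86356330 on the minus strand, had 1367 DMSO reads and 0 SC1 reads, which allows up to 3. Its reads began at base 3 (69.9%) or base 4 (29.0%), and 21 nt was the main length at 40.7%. Snord69, at chr14:31014287-31014366 on the minus strand, had 1307 DMSO reads and 0 SC1 reads, with starts at base 7 (72.9%) and base 8 (26.8%). Its main length was longer, with 28 nt at 45.8%. Snord49a (chr11:62603450-62603521, plus strand) had 842 DMSO reads and 4 SC1 reads and began at base 1 in 92.3%. Snord45c, overlapping a UTR exon of Rabggtb at chr3:153912125-153912204 on the minus strand, had 740 and 1, and began at base 2 in 65.3%. Snord55 had 590 and 50 and began at base 2 in 87.1% of DMSO reads and 84.0% of SC1 reads. Snord96a, in the ribosome-associated gene Rack1, had 254 and 5. Snord57, in an intron of Nop56, the gene of a box C/D core protein (chr2:130278016-130278087, plus strand), had 361 and 2. It has no exact C box, and 100% of its DMSO reads lay within 2 nt of the 5′ end.

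Snord2 and Snord17 departed from the 5′ pattern. Snord2, at chr16:23108953-23109021, plus strand, had 1141 DMSO reads and 0 SC1 reads, and 54.5% began at base 28 and 33.1% at base 27 of its 69 nt. These fragments lie in the middle of the transcript, and 0.0876% of the reads touched the 5′ end. Snord17, the longest member at 238 nt and in an intron of Snx5 (chr2:144265979-144266216, minus strand), had 589 DMSO reads and 0 SC1 reads. It had an exact C box at base 6, but 62.0% of its reads began at base 209 and 16.1% at base 69.

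**Figure D2:**
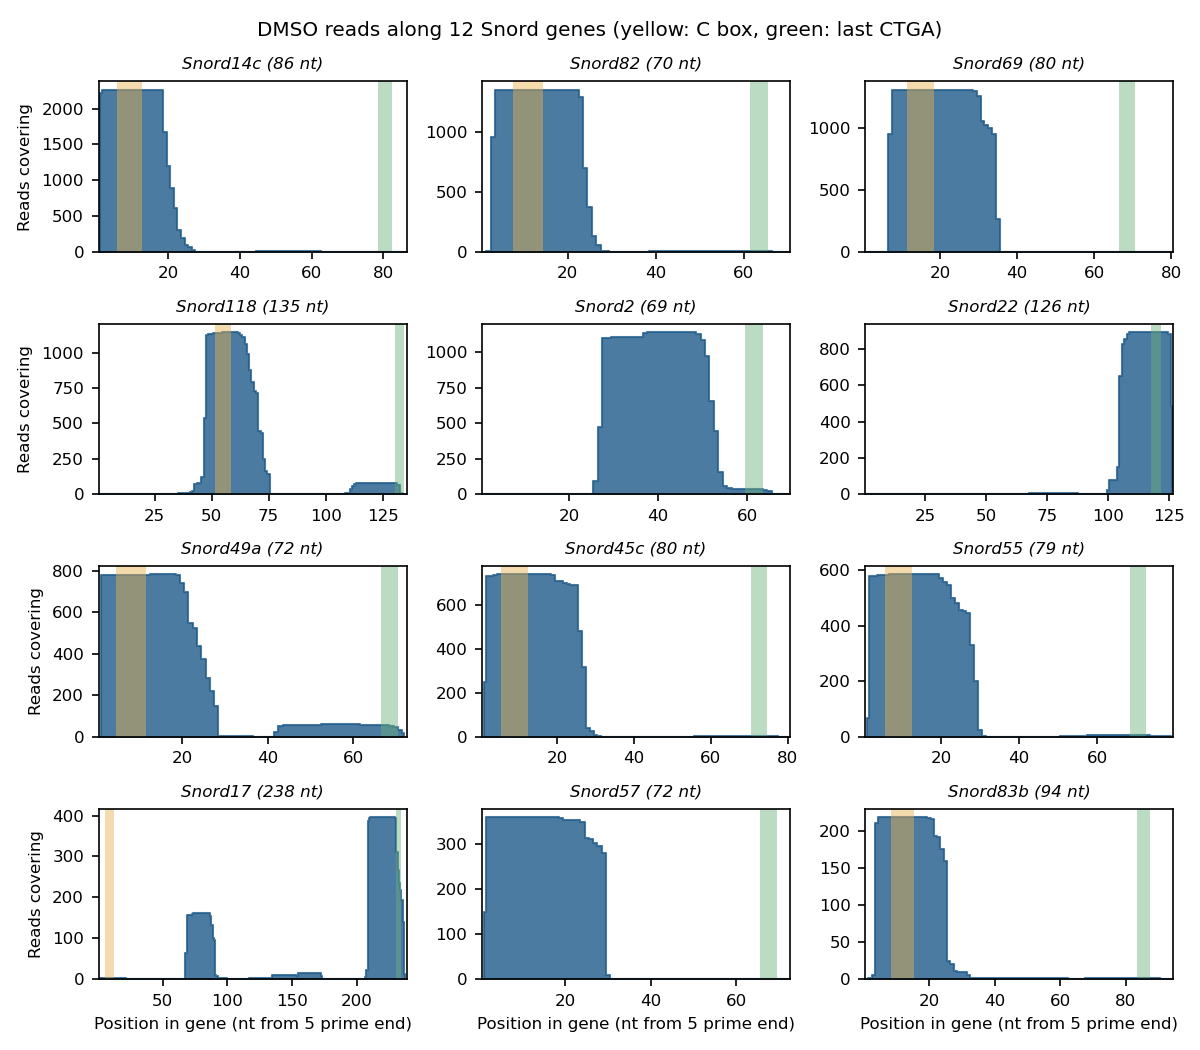
DMSO reads covering each base of 12 members, with base 1 the annotated 5′ end, the C box shaded yellow and the last CTGA shaded green. Coverage of Snord14c, Snord82, Snord69, Snord49a, Snord45c, Snord55 and Snord83b rises just before the C box, Snord118 does so at base 48, and Snord2, Snord22 and Snord17 are covered elsewhere.

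Over all members, DMSO fragments lay mainly at the 5′ side. Of the reads 54.9% began within 2 nt of the annotated 5′ end (54.1% to 55.6%) and 8.79% ended within 2 nt of the 3′ end. The C box alone lay wholly inside 69.8% of reads, the last CTGA alone inside 11.0%, both inside 0.430% and neither inside 18.8%. The members without an exact C box are in these last counts. In the 42 box H/ACA snoRNA genes, the class that guides pseudouridylation and has other boxes, 21.3% of 2091 DMSO reads lay at the 5′ end (19.6% to 23.2%) and 38.3% at the 3′ end (36.3% to 40.5%). In the 10 Rnu3 genes (U3), which are not members, 0.0187% of 92698 DMSO reads lay at the 5′ end and 79.8% at the 3′ end. In the 1357 snoRNA genes with other symbols the DMSO shares were 59.3% and 10.6%. These shares rest largely on a single gene, since Gm23212 in Gas5 had 91117 of the 120689 DMSO reads of that class. Without Snord14c and Snord14d the members' 5′ share was 38.8%. Of the members' SC1 reads 14.3% lay at the 5′ end (13.1% to 15.5%). The leading Snord83b fragment begins at base 4, so that within 5 nt the share was 90.01%, and without Snord83b it was 54.5% within 2 nt.

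Starts were also counted from the C box, over a smaller base of reads than that of the 5′ share. An exact C box was found in 71 of 98 members, beginning within the first 15 nt in 67 of them, and in 0 of 42 H/ACA genes. A CTGA was found in 98 of 98 members and in 54.8% of H/ACA genes, so this shorter motif marks the class less well. Of 13596 DMSO reads on members with a C box, 87.4% began 4 to 6 nt before it (86.8% to 87.9%), or 69.0% of all DMSO reads on members. With each distinct tag counted once the share was 43.8%, so abundant tags carry it. The start was 5 nt before in 59.4% and 4 nt before in 27.6%, against 0.412% at 6 nt and 0.331% at 3 nt. Of 3154 SC1 reads, 94.6% began 4 to 6 nt before the C box (93.8% to 95.4%). It was 74.6% without Snord83b and 52.4% with each distinct tag counted once. The remaining DMSO reads included 2.68% that began 203 nt after the C box, all from Snord17.

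**Figure D3:**
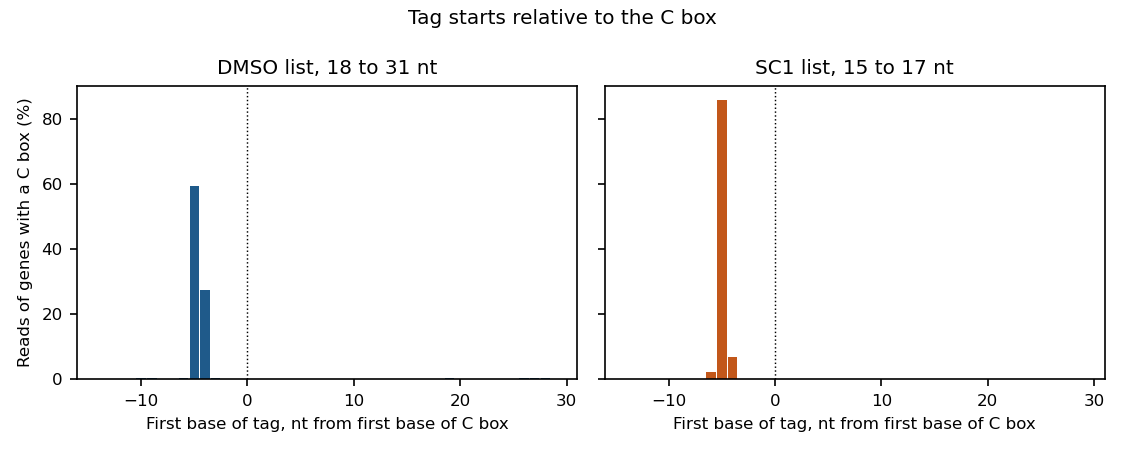
Share of reads on members with an exact C box (in percent) by the distance of the first base of the tag from the first base of the C box, in nt, for the DMSO list (left) and the SC1 list (right); starts more than 30 nt after the box are not drawn. The bar 5 nt before the box is the tallest in each list, at 59.4% and 85.9%.

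Counted by gene, the pattern held in some members and not in others. Of the 60 genes with 10 DMSO reads or more, 41 had an exact C box. In 27 of these the main start lay 4 to 6 nt before it, at 5 nt in 17 and at 4 nt in 10, and in the other 14 it lay elsewhere. In 26 of the 60 genes at least 50% of reads lay at the 5′ end, and 35 met this or the C box measure. In 5 genes at least 50% lay at the 3′ end, and 20 met none of these. Snord85, picked here after its values were seen, was like Snord118 in having its first exact C box far inside, at base 47 of 73. Of its 76 DMSO reads 89.5% began at base 42, which is 5 nt before that motif, but its leading tag ended at base 69, near the 3′ end. Whether this motif serves as its C box was not tested. Of the 10 genes with 10 reads or more in each list, 8 had main starts within 1 nt of each other. The exceptions were Snord21 and Snord13. The 8 include Snord14c and Snord14d, whose reads are nearly all the same tags split equally. They also include Snord22, where 4 SC1 reads began at base 105 and 4 at base 110, and the lower base was taken.

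Fragment length divided the members further. The most common DMSO lengths were 21 nt (12.7%), 22 nt (11.9%) and 28 nt (10.6%), and 27 to 31 nt took 21.9% (21.3% to 22.5%). The main length was 18 to 20 nt in 7 of the 60 genes, 21 to 23 nt in 18, 24 to 26 nt in 19 and 27 to 31 nt in 16. The SC1 reads were 73.2% of 16 nt, 18.2% of 17 nt and 8.59% of 15 nt, and most of the 16 nt reads came from Snord83b.

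Many of the long DMSO fragments ended just after a CTGA. Of 3763 reads of 27 to 31 nt, 56.3% ended 0 to 3 nt after a CTGA (54.7% to 57.9%), against 3.08% of reads of 18 to 26 nt (2.79% to 3.38%). The share was 29.3% at 27 nt, 65.0% at 28 nt and 81.6% at 29 nt. Any CTGA counted, whether the last of the gene or an earlier one. This measure was chosen after the leading tags were seen and is a description. Among SC1 reads the share was 0.279%.

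Genes were near one extreme or the other. Of the 29 genes with at least 10 long reads, 10 were above 90% and 18 below 20%, and Snord21 was at 44.7%. Snord69 had 99.9% of 976 long reads ending after the CTGA, Snord57 100% of 301, Snord93 93.3% of 195 and Snord17 99.5% of 193. Snord69 carries much of the total, and without it the share was 41.0%. Among the low genes Snord55 had 0% of 335 long reads and Snord14e 0% of 102. Snord118 had 0.433% of 231. For Snord55, Snord69 and Snord57 the main length was 28 nt in each. Of the others above the 90% level, Snord78 had 95.6%, and Snord85 with 95.9%, Snord98 with 96.7% and Snord1b with 100% are named after their values were seen.

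**Figure D4:**
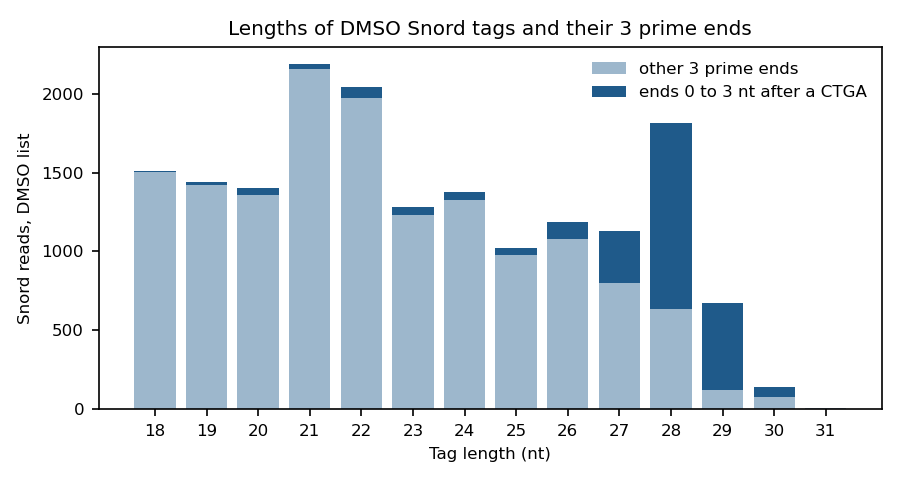
DMSO reads on members by tag length in nt, stacked by 3′ end: dark blue for tags that end 0 to 3 nt after a CTGA, light blue for all others. Reads peak at 21 nt and again at 28 nt, and the dark share is 65.0% at 28 nt and 81.6% at 29 nt.

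Snord83b led the SC1 list. It lies in an intron of the ribosomal protein gene Rpl3 at chr15:80078498-80078591, minus strand, and had 2497 SC1 reads, 77.5% of the members' reads, and 222 DMSO reads. In each list nearly all of them began at base 4, 96.0% in SC1 and 92.3% in DMSO. Single lengths stood out from that start, where 2149 SC1 reads were of 16 nt, against 45 of 15 nt and 204 of 17 nt, and 126 DMSO reads were of 22 nt, against 17 of 21 nt and 5 of 23 nt. The 16 nt tag is the first 16 bases of the 22 nt tag. Whether the SC1 library held Snord83b tags of 18 nt or more was not analysed here. Of the SC1 reads 48 also matched transcripts elsewhere in the annotation, from 5 genes such as Brwd1 and Gm18216.

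**Figure D5:**
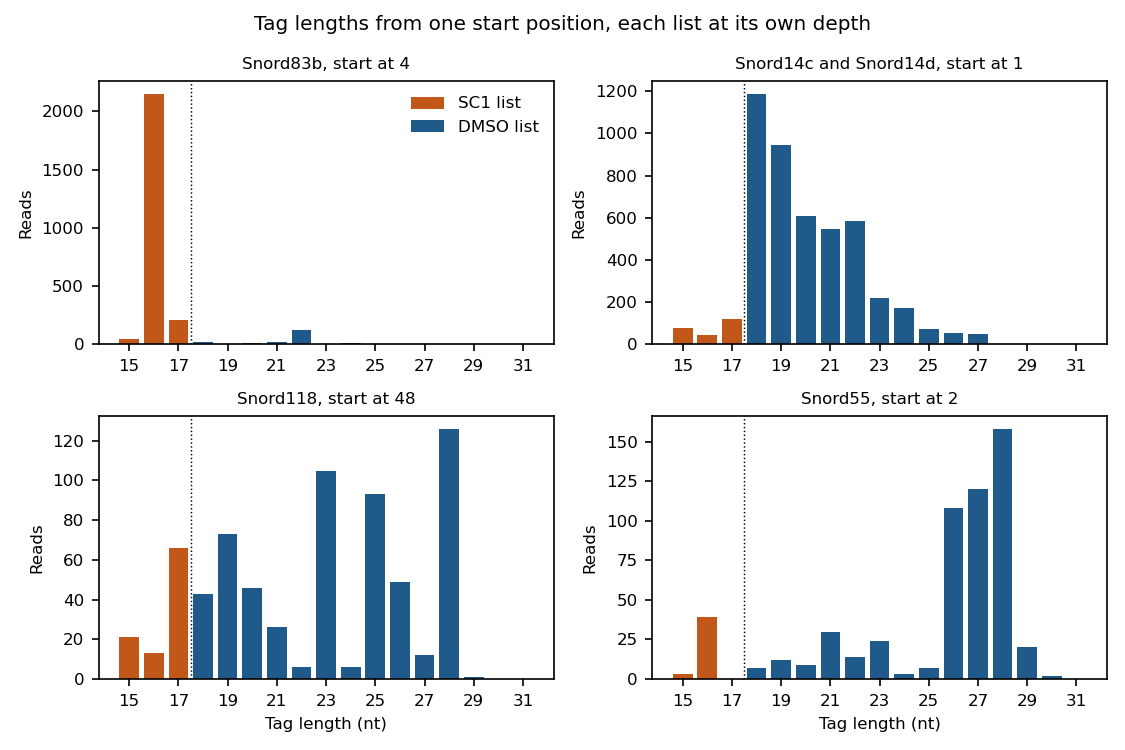
Reads by tag length in nt from the main start of Snord83b (base 4), Snord14c and Snord14d together (base 1), Snord118 (base 48) and Snord55 (base 2); orange bars are the SC1 list, blue bars the DMSO list, and the dotted line marks where one list ends and the other begins, so heights are not comparable across it. Snord83b has 2149 SC1 reads at 16 nt, Snord14c and Snord14d fall from 1187 DMSO reads at 18 nt to 49 at 27 nt, and Snord55 has 158 at 28 nt.

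The other leading SC1 members were fewer in reads. Snord21, in an intron of the ribosomal protein gene Rpl5 (chr5:107904555-107904648, plus strand), had 123 SC1 reads and 203 DMSO reads. It differed in position between the lists: 96.7% of SC1 reads ended at the 3′ end, while the DMSO reads were divided, 45.3% at the 5′ end and 47.3% at the 3′ end. Snord93 had 37 SC1 and 238 DMSO reads, and Snord73a, in Rps3a1, had 35 and 102. All 37 SC1 reads of Snord93 and 98 of its DMSO reads also matched Mir3096, a gene the annotation types as snoRNA.

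Host genes ranged widely. The members fall in 54 host genes, 88 in introns, 4 in exons and 3 in UTR exons, and 3 had no host. A member was placed in an exon when it overlapped an exon of any annotated transcript of its host, so it may be intronic in others. Protein-coding hosts held 56 members and 76.6% of DMSO reads, other hosts 39 members and 15.1%, and members without a host 8.27%. Hspa8, with 3 members, held 27.8% of DMSO reads, ahead of Gnl3 with 1521 reads and Ncl with 1367. Ribosomal protein genes hosted 21 members in 14 genes. They held 10.5% of DMSO reads and 84.5% of SC1 reads, the latter mostly through Snord83b.

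Reads differed among the members of Gas5 and among those of Rpl13a. In the noncoding host Gas5, whose introns carry many snoRNAs, the 4 members had 133 of 91718 DMSO snoRNA reads. Snord78 had 82, with 85.4% beginning at base 35, and Snord47 had 45, with 97.8% at the 5′ end. The 2 annotated Snord80 genes overlap and had 3 reads each. The Gas5 members had 0 SC1 reads. In Snhg1 the member Snord22 held 905 of 6599 DMSO snoRNA reads. In Rpl13a all 4 snoRNA genes are members and had 113 DMSO reads and 6 SC1 reads, led by Snord34 with 60 and Snord32a with 41 DMSO reads. Snord35a had 9.

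Of the imprinted families Snord113 to Snord116, only Snord116 had members, and they had few reads. These families are expressed from 1 parental allele, and the Snord115 and Snord116 families are best known in neurons. The annotation has no gene with a Snord113, Snord114 or Snord115 symbol. It has 17 Snord116l genes with 4 distinct sequences, which had 10 DMSO reads in 7 tags, 0.0581% of the members' reads (0.0279% to 0.107%). All 10 also matched 1 or more of 53 other genes, such as Gm22046, so they cannot be placed at one copy. There were 0 SC1 reads, which allows up to 0.0931%. In the Snhg14 to Snrpn locus (chr7:59307924-60140219, minus strand), 79 of 80 DMSO snoRNA reads matched 1 or more of the 19 members. These 79 include the 10 Snord116l reads that other genes share, and 0 reads were found in the SC1 list. Most came from Snord64 with 35 reads and Snord107 with 34 reads, both hosted by Gm38393. Of their reads 100% lay at the 5′ end and 100% began 4 to 6 nt before the C box, as in the leading members, but the main length was 27 nt in Snord64 and 24 nt in Snord107. These are the leading tags, with the C box in capitals.
Snord64, DMSO: gacttATGATGAgctatgtttactgag
Snord107, DMSO: gatttATGATGAtataggaccttg

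In the other imprinted region, from Meg3 to Mirg (chr12:109541001-109749460, plus strand), 23 snoRNA genes lie where the Snord113 and Snord114 families are known. They had 908 DMSO reads and 86 SC1 reads. None has a Snord symbol, so 0 were members, and the reads were led by AF357428 with 509.5.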

How the data were processed

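The authors deposited, for each library, a list of sequence tags with raw read counts, not normalized. How adapters and lengths were handled, and which aligner was used, is not given in the sources used here. Per the submitters' processing notes the build was mm9, whose coordinates were not used. Only exact sense matches of a tag to GENCODE M21 snoRNA transcripts (GRCm38) were used, so J1 alleles that differ from the reference were missed. A tag shared by several members was split equally among its positions. A C box was the first ATGATGA or GTGATGA, and the D box the last CTGA. Each condition had 1 library, so no test was run, and p-values were not computed. Intervals are exact 95% binomial or Poisson intervals, and a count of 0 was given a limit of 3 counts. Matching was tested on simulated data. The hosts and positions of some members are not reported here. Every measurement column was mapped to a sample (0 were not).

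The members and lists were chosen with earlier results of these data known. Named genes were the 15 members with the most DMSO reads, the 10 with the most SC1 reads, up to 5 of each imprinted family, the pre-rRNA processing list, up to 3 members each of Gas5, Snhg1 and Rpl13a, and Snord64 and Snord107. Others are said to be chosen after their values were seen, apart from Snord111, named as the only gene with 0 DMSO reads before and after splitting. Alternatives were unique tags only, tags with 10 reads or more, distinct tags, other end tolerances, other length windows, other read minimums, no match to ribosomal, snRNA or tRNA genes, and leaving out leading genes. Python 3.11.15, numpy 2.4.6, scipy 1.17.1, pandas 2.3.3 and matplotlib 3.10.9 were used.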

Additional observations from a re-analysis of the deposited data

Results flagged for a closer look

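DMSO tags of 32 to 44 nt lay outside the lengths analysed. They held 7479 reads, of which 4 matched a member exactly, above the limit of 3 counts. They were 3 tags, on Snord83b (2 reads), Snord78 (1 read) and Snord93 (1 read).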

How the results depend on the processing

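No paired analysis was possible because there was only 1 library for each of DMSO and SC1. Depth limits members under 10 reads, and the SC1 list most, where 58 of 98 genes had 0 reads. Of the alternative values, 59 moved by more than counting error (for counts of genes, by over 1.5 times) and 31 did not. The cause was not tested, except that a setting which leaves out tags or genes changes what is counted. Alternatives that leave out Snord14c with Snord14d, Snord83b from the C box share, or Snord69, and all that concern the C box or CTGA, were chosen after seeing the data.

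With tags unique to 1 member, the DMSO share of reads was 0.0668%, the 5′ share 38.8%, the 3′ share 11.9%, the C box share 81.4%, the 27 to 31 nt share 29.4% and the Snord116l share 0%. The SC1 share was 0.282% and its 5′ share 7.16%. With tags of 10 reads or more, the DMSO shares were 0.0850% of reads, 57.9% at the 5′ end, 7.80% at the 3′ end and 0% Snord116l, and the SC1 shares 0.318%, 12.8% and 3.42%. With distinct tags each counted once, the DMSO shares were 0.137%, 33.1%, 13.8%, 0.562% Snord116l, 43.8% at the C box and 38.8% of long tags ending after CTGA, and the SC1 shares 0.164%, 35.8%, 20.2% and 52.4% at the C box.

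Without Snord14c the DMSO shares were 0.0792%, 48.1%, 10.1% and 24.998% of 27 to 31 nt. Without Snord14c and Snord14d they were 0.0672%, 38.8%, 81.3% at the C box and 29.2% of 27 to 31 nt. Without Snord83b the SC1 shares were 0.0688%, 54.5%, 19.7% and 74.6% at the C box. Without Snord69 the long reads ending after CTGA were 41.0%, and with ends 1 to 2 nt after it 46.4%. Exactly at the annotated end, the 5′ and 3′ shares were 38.0% and 3.76% in DMSO and 9.43% and 0.434% in SC1. Within 5 nt they were 61.4% and 11.6% in DMSO, and 90.01% at the SC1 5′ end. Starts 4 to 6 nt before the C box, in place of the 5′ end, were 87.4% (DMSO) and 94.6% (SC1) of reads on members with a C box, a smaller base than that of the 5′ share, and exactly 5 nt before it 59.4% and 85.9%. With DMSO tags of 18 to 26 nt, the share was 0.0810% and the 5′ share 59.1%. With SC1 tags of 17 nt only, the shares were 0.109%, 41.4% and 7.84%, with 6 genes at 10 reads. At 100 reads 23 DMSO and 5 SC1 genes were counted, and at 1 read 40 SC1 genes.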
